A study of Mus musculus with 8 samples.

Results

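The AP-1 and EGR factors described here are 10 genes of the 29955 gene names listed in every library: Fos, Fosb, Fosl2, Jun, Junb, Jund, Atf3, Egr1, Egr2 and Egr3. They were selected on their symbols, with the genotype fold changes of their signal and the rank of Fos by reads in these libraries already known, so that their differences between genotypes are given as a description without a test of each gene. The RNA-seq libraries came from bone marrow cells of WT mice and of mice with both Ripk3 alleles disrupted (Ripk3-/-, labelled Ripk3-KO), on a background given in the labels as CD57BL6/J. Ripk3 is a kinase of the necroptosis pathway. LSK cells were sorted as lineage-negative, Sca1-positive and Kit-positive, and hold the hematopoietic stem cells and multipotent progenitors. LK cells were sorted as lineage-negative and Kit-positive without Sca1, and hold the myeloid progenitors. There were 4 groups of 2 libraries (LSK and LK cells of each genotype), and nothing in the labels says whether the libraries of a group came from separate mice, so that p-values measure the spread between these libraries, which may be technical. The labels name no treatment, whereas the study's methods describe fractionated X-irradiation of the mice before collection, and neither source gives the mice an age for these libraries that could be used here.

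AP-1 is a dimer of a FOS protein with a JUN protein, or of 2 JUN proteins, that binds DNA through a basic leucine zipper. ATF3 is a related zipper protein that is induced by stress and can pair with JUN. EGR1, EGR2 and EGR3 are zinc finger factors that bind GC-rich sites. Most of these genes are silent or low in resting cells, are transcribed within minutes of a growth factor or stress signal through factors that are already present, and have short-lived transcripts, whereas Jund is usually expressed more steadily. In bone marrow, EGR1 is known for holding stem cells in quiescence, and JUNB for restraining the expansion of myeloid cells.

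The values, called signal here, are reads per gene in CPM, a unit relative to the reads of the library, with a TMM library factor that adjusts for composition. They are not divided by gene length, and the LSK and LK libraries were scaled apart. The libraries held 9782166 to 16280811 reads, 1 read was worth a signal of 0.0621 to 0.104, and 3 reads, taken as the floor, were worth 0.186 to 0.311. These floors cover counting error only. Ripk3 itself was at 162 and 168 in WT against 3.38 and 1.08 in Ripk3-/- LSK libraries, and at 144 and 150 in WT against 16.2 and 10.6 in Ripk3-/- LK libraries, so that its level matched the labels. The WT libraries held Xist at 108 to 413 and no reads of 4 Y-linked genes, whereas the Ripk3-/- libraries held these Y-linked genes at a summed signal of 65.1 to 135 and Xist at 0 to 1.27, so that genotype and sex cannot be told apart. Ly6a, which encodes Sca1, was at 141 to 237 in LSK and at 0.124 to 4.12 in LK libraries, and Mpo, a granule enzyme of myeloid progenitors, was at 3529 to 5642 in LSK and at 37309 to 54602 in LK libraries. The summed signal of 8 neutrophil markers was 704 to 769 in WT LSK and 2339 to 2766 in Ripk3-/- LSK libraries, and 774 to 781 in WT LK and 1679 to 1683 in Ripk3-/- LK libraries, and none of the 8 was at 0 in any library. The summed signal of 9 LSK and stem cell markers was 2445 to 2496 in WT LSK and 3305 to 3700 in Ripk3-/- LSK libraries. That of 6 endothelial and stromal markers was 59.7 to 74.4 and 31.0 to 33.2 in the same groups. That of 9 myeloid and erythroid progenitor markers, most of it Mpo, was 8016 to 8984 in WT LSK and 5830 to 7340 in Ripk3-/- LSK libraries. Among these, Mpo, Elane, Prtn3, Gata1 and Car1 were lower in Ripk3-/- LSK libraries without overlap, and Ctsg, Ms4a3, Cebpe and Klf1 overlapped. In LK libraries the sum of these 9 markers, most of it Mpo, overlapped between genotypes, but single markers differed. Elane, Prtn3, Ctsg, Gata1 (142 to 186 in WT, 98.0 to 107 in Ripk3-/-), Klf1 and Car1 were lower in Ripk3-/- LK libraries without overlap. Cebpe was higher without overlap, and Mpo and Ms4a3 overlapped. In LK libraries, 4 mast cell and basophil markers were at 239 to 269 in WT and 343 to 356 in Ripk3-/-, and 6 T cell markers at 17.6 to 19.1 and 11.9 to 12.6. Most of this T cell sum was Lck (10.6 to 11.2 in WT, 9.87 to 10.1 in Ripk3-/-). The other T cell markers were at 2.67 or less, with Cd3d and Cd8a at 0 in a Ripk3-/- LK library. The part of these markers in the differences between genotypes was not tested. Since these are bulk samples, fewer cells of a type and less RNA per cell cannot be told apart.

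The promoters of these genes are known for carrying elements that receive the inducing signals, and the 100 bases before the start are shown for the 5 members in which a searched motif fell into that stretch. They are RefSeq sequences of GRCm38.p6, a later build than the mm9 named for these libraries, written 5′ to 3′ along the gene, with the matches in capitals. RefSeq promoters were searched for 8 of the 10 members, without Egr1 and Egr3.
Fos (chr12:85473790-85473889, plus strand): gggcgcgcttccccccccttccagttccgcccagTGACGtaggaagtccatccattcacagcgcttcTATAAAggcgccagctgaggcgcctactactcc
Fosb (chr7:19310046-19310145, minus strand): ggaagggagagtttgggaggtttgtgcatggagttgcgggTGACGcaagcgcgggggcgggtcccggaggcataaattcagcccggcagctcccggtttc
Jun (chr4:95052223-95052322, minus strand): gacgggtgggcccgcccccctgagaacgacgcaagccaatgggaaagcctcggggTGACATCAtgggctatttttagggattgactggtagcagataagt
Atf3 (chr1:191183334-191183433, minus strand): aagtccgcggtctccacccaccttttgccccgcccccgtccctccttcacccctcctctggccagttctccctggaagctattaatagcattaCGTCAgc
Egr2 (chr10:67537769-67537868, plus strand): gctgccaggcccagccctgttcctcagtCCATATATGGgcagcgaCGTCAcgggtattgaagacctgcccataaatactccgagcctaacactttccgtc

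The motifs were searched on both strands in the 250 bases before the start, and the share with a match was taken over 32851 promoters. In Fos, TATAAA (12.4% of promoters) lay 33 to 28 bases before the start, and the CRE half-site TGACG (17.8%) lay at 66 to 62 and again at 129 to 125. In Jun, the variant TGACATCA (2.93%), to which JUN and ATF proteins are known to bind, lay at 45 to 38. Fosb had TGACG at 60 to 56, and Atf3 had it on the other strand at 7 to 3. Junb had TGACG at 106 to 102, just outside the stretch shown for the others. At the Egr2 start shown, a match to the CArG box (1.47%), which binds serum response factor, lay at 72 to 63, and TGACG lay on the other strand at 55 to 51. No match to TGANTCA (6.75%), TGACGTCA (1.55%) or the EGR site GCGTGGGCG (0.536%) was found in the windows searched, which says only that these letters are not there. The Jund entry begins upstream of the start that GENCODE M21 gives the gene, so its window is not described. The windows shown for Atf3 and Egr2 lie inside the spans that GENCODE M21 gives these genes (chr1:191170296-191218039 and chr10:67535475-67542188). All distances refer to the RefSeq starts.

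Fos was the gene with the most reads in each LSK library, where it took 0.734% to 0.935% of the reads, and ranked 13 to 21 in the LK libraries with 0.226% to 0.288%. The 10 genes together held 1.64% to 1.88% of the reads in LSK and 0.606% to 0.710% in LK libraries. Levels of different genes were compared as mean signal per kb of exon. In WT LSK cells the order was Fos at 3491 ± 154 (SD, n = 2), Jun at 929 ± 18.0, Junb at 900 ± 11.1 and Egr1 at 575 ± 8.18. Atf3 at 252 ± 9.55, Jund at 236 ± 32.2 and Fosb at 231 ± 25.2 followed and lay within each other's spread. Fosl2 at 4.42 ± 1.72, Egr2 at 1.87 ± 1.81 and Egr3 at 0.681 ± 0.713 were far lower, and the last pair did not differ beyond their spread. In WT LK cells Fos was at 1154 ± 18.2, Jun at 628 ± 36.4, Junb at 424 ± 60.9, Jund at 303 ± 106, Egr1 at 226 ± 6.58, Atf3 at 104 ± 12.2 and Fosb at 50.6 ± 18.2 signal per kb, and Jund and Egr1 lay within the spread of Jund.

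**Figure D1:**
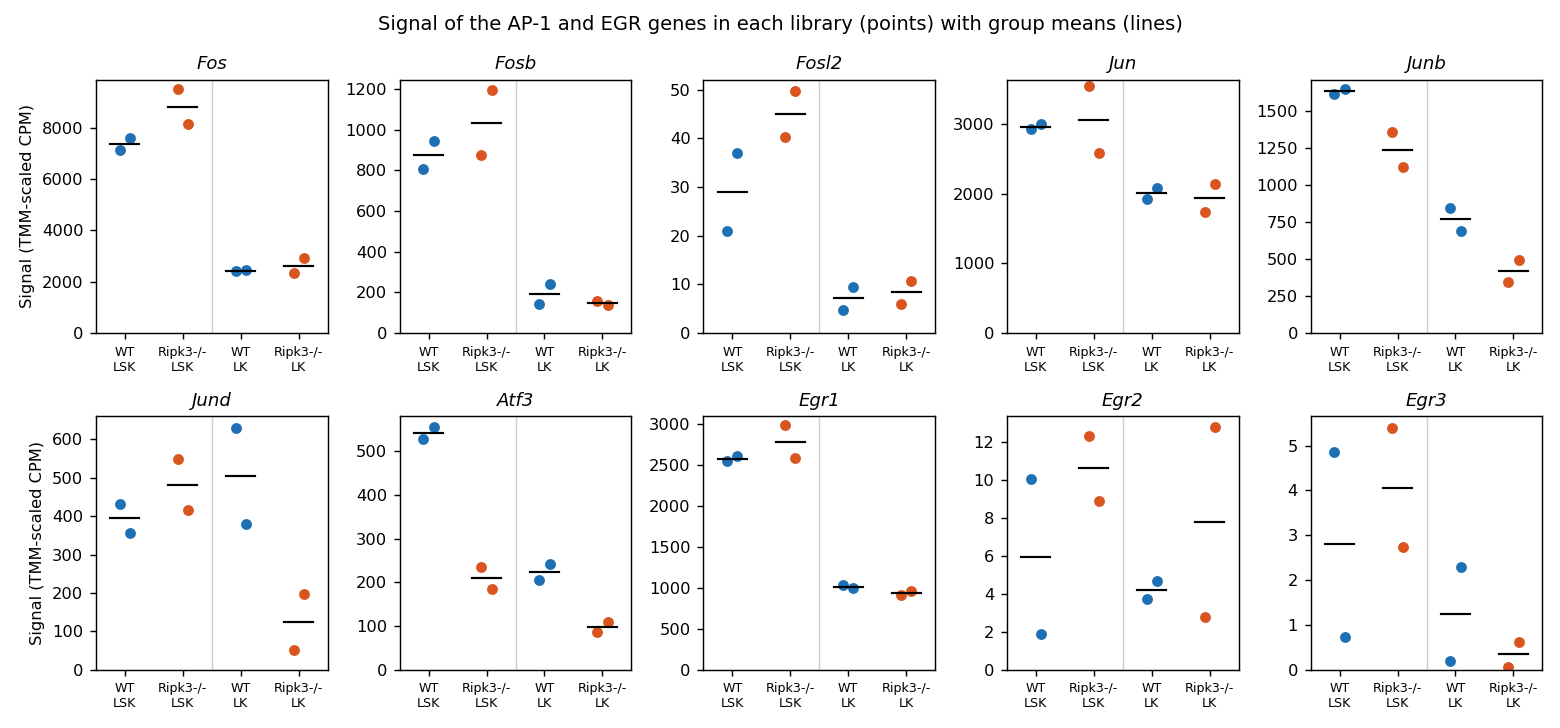
Signal (TMM-scaled CPM, linear axes from 0) of the 10 genes in each library, with points for the 2 libraries of a group, WT in blue and Ripk3-/- in orange, and lines for group means. Atf3 was lower in each Ripk3-/- library than in both WT libraries of its population, Jund was low only in the Ripk3-/- LK libraries (51.7 and 197), and LSK and LK values carry separate library scales.

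Genotypes were compared by fitting log2(signal + 1) with limma over all 8 libraries, and on that scale the changes of low genes appear too small. Among the FOS genes, which supply the partner that cannot pair with itself, Fos was at 7129 and 7590 in WT LSK against 9510 and 8126 in Ripk3-/- LSK libraries. Both Ripk3-/- values lay above both WT values, with a log2 fold change of 0.26 (SE 0.14). In LK cells Fos was at 2406 and 2461 in WT and at 2320 and 2914 in Ripk3-/- libraries, and the groups overlapped (0.10, SE 0.14).

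Fosb, which has a strongly inducible transcript, was at 807 and 942 in WT LSK and at 875 and 1193 in Ripk3-/- LSK libraries. In LK cells it was at 143 and 240 in WT and at 158 and 140 in Ripk3-/- libraries. The groups overlapped in both populations, with log2 fold changes of 0.23 (SE 0.21) in LSK and -0.31 (SE 0.21) in LK cells. Fosl2, which encodes FRA-2, was at 21.0 and 36.9 in WT LSK and at 40.3 and 49.8 in Ripk3-/- LSK libraries, without overlap (0.67, SE 0.45). In LK cells Fosl2 was at 4.82 and 9.46 in WT and at 5.96 and 10.7 in Ripk3-/- libraries, with overlap (0.21, SE 0.45).

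The JUN genes differed from each other. Jun, which encodes the strongest activator among them, was at 2923 and 3004 in WT LSK and at 3544 and 2581 in Ripk3-/- LSK libraries, and the Ripk3-/- values lay on both sides of WT (0.03, SE 0.15). It was at 1921 and 2085 in WT LK and at 1740 and 2134 in Ripk3-/- LK libraries, again with overlap (-0.05, SE 0.16).

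Junb, whose protein can oppose JUN on some targets, was lower in every Ripk3-/- library than in the WT libraries of the same population. Its signal was 1615 and 1643 in WT LSK and 1357 and 1117 in Ripk3-/- LSK libraries (-0.40, SE 0.17). In LK cells it was 845 and 689 in WT against 346 and 493 in Ripk3-/- libraries (-0.88, SE 0.17).

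Jund, the steadier JUN gene, was at 432 and 356 in WT LSK and at 549 and 415 in Ripk3-/- LSK libraries, and these groups overlapped (0.28, SE 0.37). In LK cells it was at 631 and 380 in WT and at 51.7 and 197 in Ripk3-/- libraries. Both Ripk3-/- LK values lay below every other library, also on the common scale of all 8 libraries used further on, and the libraries of each LK group stood far apart from each other. The log2 fold change in LK cells was -2.26 (SE 0.36), which became -1.31 without Ripk3-/- LK replicate 1 and -3.22 without Ripk3-/- LK replicate 2. The log2 fold change in LSK minus that in LK cells was 2.55 (SE 0.51) for Jund. It was between -0.19 and 1.22 for the other 9 genes, with the highest value for Egr3, which had few reads.

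Atf3 was lower in Ripk3-/- cells of both populations. Its signal was 528 and 557 in WT LSK and 236 and 185 in Ripk3-/- LSK libraries (-1.37, SE 0.19), which is 2.59-fold lower on this scale. In LK cells it was 205 and 242 in WT against 87.3 and 110 in Ripk3-/- libraries (-1.18, SE 0.19), which is 2.26-fold lower. The WT and Ripk3-/- values were well apart from each other in both populations.

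Among the EGR genes, Egr1 was at 2554 and 2606 in WT LSK and at 2991 and 2581 in Ripk3-/- LSK libraries, with overlap (0.11, SE 0.13). In LK cells it was at 1036 and 994 in WT and at 910 and 967 in Ripk3-/- libraries, where the Ripk3-/- values were lower without overlap but close to WT (-0.11, SE 0.14). Egr2, which is best known from Schwann cells and lymphocytes, was at 10.03 and 1.86 in WT LSK, 12.3 and 8.90 in Ripk3-/- LSK, 3.74 and 4.66 in WT LK, and 2.79 and 12.8 in Ripk3-/- LK libraries. Replicates of one group differed as much as the groups did. Egr3 was at 4.87 and 0.725 in WT LSK and at 5.39 and 2.74 in Ripk3-/- LSK libraries. In LK cells Egr3 had 3 and 30 reads in WT and 1 and 10 reads in Ripk3-/- libraries, and its mean signal there was under 1, the minimum for a test. Egr3 lies on chromosome 14, 14.3 Mb from Ripk3.

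**Figure D2:**
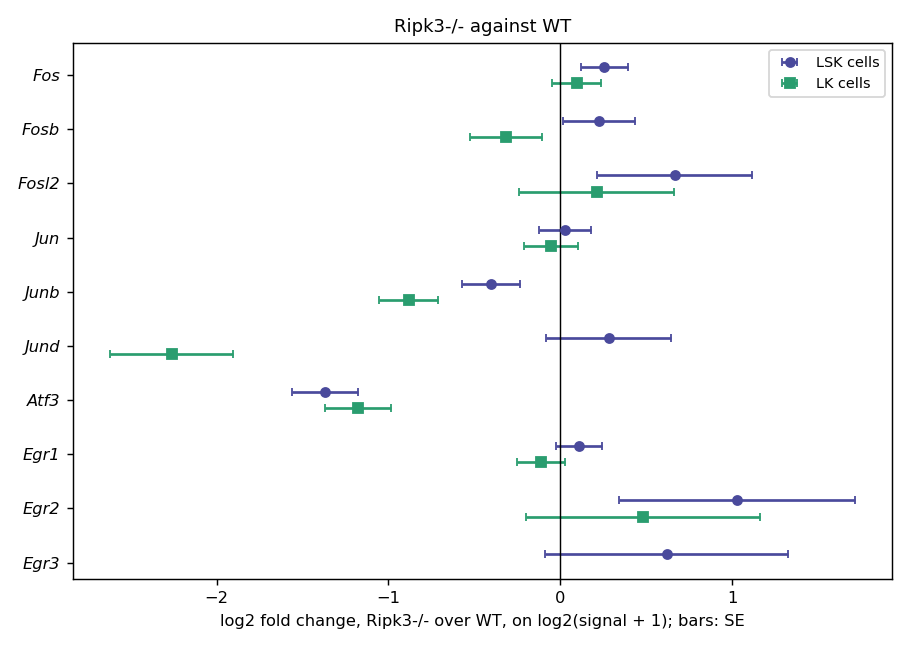
Log2 fold change of Ripk3-/- over WT on log2(signal + 1), with bars for the SE, in LSK (circles) and LK cells (squares). Atf3 was at -1.37 and -1.18, Jund at -2.26 in LK and 0.28 in LSK cells, while Fos, Jun and Egr1 lay between -0.11 and 0.26, and Egr3 was not tested in LK cells.

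In the fit over all 13949 genes of LK cells, 0.373% were called lower at an adjusted p under 0.05 from limma and 0.1% higher. Of the members, 3 of 9 were among the lower genes and 0 among the higher, and since the members were chosen with this contrast known, the count is a description and nothing is read from it. The count was 1 without WT LK replicate 1, and 0 without Ripk3-/- LK replicate 1. Groups did not overlap for 4 members, all lower in Ripk3-/- LK cells, as for 19.9% of all genes. In LSK cells the same description gives 1 of 10 members lower and 0 higher, beside 1.27% and 0.892% of 16817 genes. The groups did not overlap for Fos and Fosl2, which were higher (21.4% of all genes), and for Atf3 and Junb, which were lower (23.2%). For the difference between the populations it gives 1 of 10 members, beside 0.358% of 15901 genes, and 0 when the reads were tested with edgeR or DESeq2 or when any one library other than WT LK replicate 2 or Ripk3-/- LK replicate 2 was left out.

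The make-up of the AP-1 and EGR signal per kb shifted with these values. Fos made up 52.7% of it in WT LSK and 58.8% in Ripk3-/- LSK cells, and 39.9% in WT LK and 50.6% in Ripk3-/- LK cells. Jund made up 10.4% in WT LK and 2.87% in Ripk3-/- LK cells, with a range of 8.04% to 12.8% and of 1.44% to 4.29% between libraries. Junb went from 13.6% to 9.60% in LSK and from 14.6% to 9.39% in LK cells, and Atf3 from 3.80% to 1.37% and from 3.59% to 1.86%. These are shares of one sum, so that a fall of one member raises the others.

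**Figure D3:**
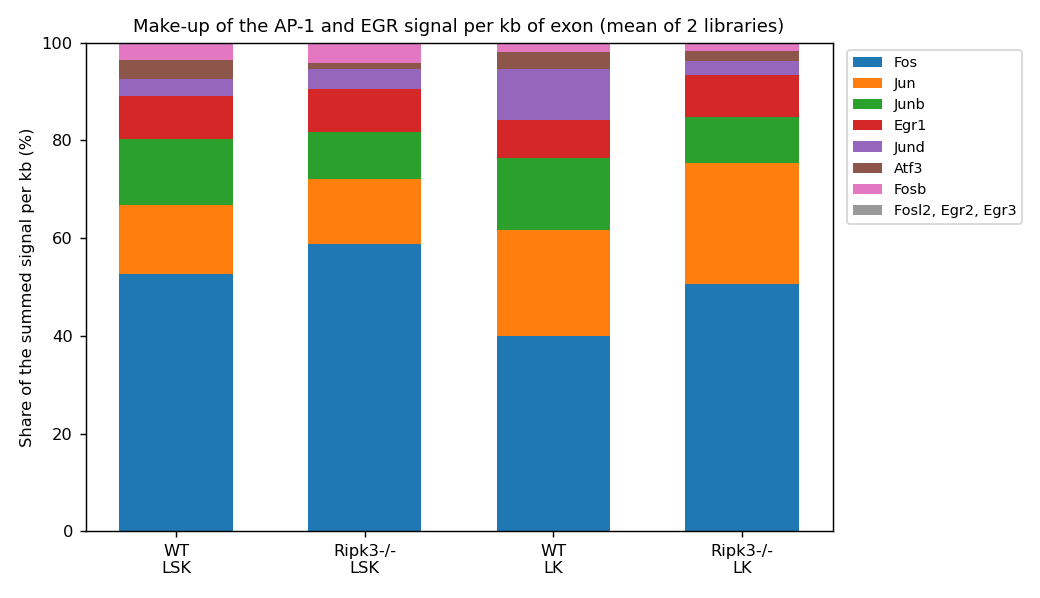
Stacked shares (%) of the 10 genes in their summed signal per kb of exon, as means of 2 libraries per group. Fos was the largest share in all 4 groups (39.9% to 58.8%), and the Jund share was smallest in Ripk3-/- LK cells at 2.87%.

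Some features of the genes bear on these values. Junb (chr8:84974484-84978718, minus strand of GRCm38) and Jund (chr8:70698949-70700616, plus strand) are protein-coding genes with an exonic GC content of 62.6% and 67.1%, at percentile 98.5 and 99.7 of genes with a known GC content, and the other members lay between 51.3% and 57.3%. In LK cells the median log2 fold change was -0.13 in the tenth of genes with the highest GC content and 0.11 in the tenth with the lowest. After removal of the GC trend, the log2 fold changes in LK cells were -1.94 for Jund, -0.70 for Junb and -1.2 for Atf3. Junb overlaps Prdx2, Jund overlaps Gm11175, Jun overlaps Junos and Atf3 overlaps Gm24748, each on the opposite strand. Although the library kit keeps the strand, how the reads were counted is not given in the sources used here, so that reads of these pairs may not have been separated.

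LSK and LK cells were compared within a genotype, where sex and genotype are the same on both sides. Recovered reads were used as CPM on one TMM scale over all 8 libraries, with limma on log2(CPM + 1). Fos, whose rank in LSK cells was known when it was chosen, and Jund, whose low values in Ripk3-/- LK libraries were, are described only and left out of the counts. Junb and Atf3 were also known to be lower in Ripk3-/- than in WT libraries, which involves the WT values too, so they are described without a test. In WT mice 5 of the other 8 members were called higher in LSK cells and 0 lower, whereas 9.16% of 15950 genes were called higher and 14.8% lower. In Ripk3-/- mice 5 of these 8 were called higher and 0 lower, against 7.95% and 12.2% of 15237 genes. Since Junb and Atf3 are among the 5 in each genotype, both counts are a description and nothing is read from them. Fos was at 6258 and 6662 CPM in WT LSK and 2743 and 2776 CPM in WT LK libraries (log2 fold change 1.23, SE 0.15), and at 8426 and 7110 CPM in Ripk3-/- LSK and 2636 and 3339 CPM in Ripk3-/- LK libraries (1.38, SE 0.14).

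Fosb had the largest rise of the 10 genes. It was at 708 and 827 CPM in WT LSK against 163 and 271 CPM in WT LK libraries, higher by 1.86 on the log2 scale (SE 0.21, adjusted p = 1.1e-06 from limma). In Ripk3-/- mice it was at 775 and 1044 CPM in LSK against 179 and 160 CPM in LK libraries (2.40, SE 0.21, adjusted p = 1.6e-08 from limma). Fosl2, at far lower levels, was higher in LSK cells by 1.55 (SE 0.45, adjusted p = 0.0170 from limma) in WT and by 1.99 (SE 0.45, adjusted p = 0.00274) in Ripk3-/- mice. Its call was lost in WT without LSK replicate 2 (1.15) or LK replicate 1 (1.12), and in Ripk3-/- mice without LK replicate 1 (1.6).

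Jun differed little between the populations. Its log2 fold change was 0.20 (SE 0.16, adjusted p = 0.378 from limma) in WT, where it was at 2565 and 2636 CPM in LSK and at 2190 and 2353 CPM in LK libraries. It was 0.28 (SE 0.16, adjusted p = 0.246 from limma) in Ripk3-/- mice. Junb was higher in LSK cells by 0.72 (SE 0.18) in WT and by 1.2 (SE 0.18) in Ripk3-/- mice, both given without a test. The value in WT was 0.71 without LSK replicate 2 and 0.57 without LK replicate 2.

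The log2 fold change of Jund had opposite signs in the 2 genotypes. In WT mice Jund was at 380 and 313 CPM in LSK and at 719 and 429 CPM in LK libraries, lower in LSK on this scale (log2 fold change -0.69, SE 0.36). That WT value depended on the scale, at -0.17 with quantile normalization and -0.26 with each library scaled to the same total. In Ripk3-/- mice Jund was at 487 and 363 CPM in LSK and at 58.8 and 226 CPM in LK libraries (1.86, SE 0.36). These are the same Ripk3-/- LK libraries that were low in the comparison of genotypes, and the value was 0.89 without Ripk3-/- LK replicate 1 and 2.82 without Ripk3-/- LK replicate 2.

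Egr1 was higher in LSK cells by 0.98 (SE 0.14, adjusted p = 3.8e-05 from limma) in WT, with 2242 and 2288 CPM against 1181 and 1121 CPM, and by 1.19 (SE 0.14, adjusted p = 1.8e-06) in Ripk3-/- mice. Atf3 was higher by 0.91 (SE 0.19) in WT and by 0.72 (SE 0.19) in Ripk3-/- mice, both given without a test, from levels that differed between the genotypes. In Ripk3-/- mice the Atf3 value was 0.53 without LSK replicate 1 and 0.55 without LK replicate 1. Egr2 and Egr3 did not pass the test in WT (-0.17, SE 0.68, and 0.48, SE 0.71) or in Ripk3-/- mice (0.34, SE 0.68, and 1.71, SE 0.72, adjusted p = 0.106 from limma for Egr3).

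**Figure D4:**
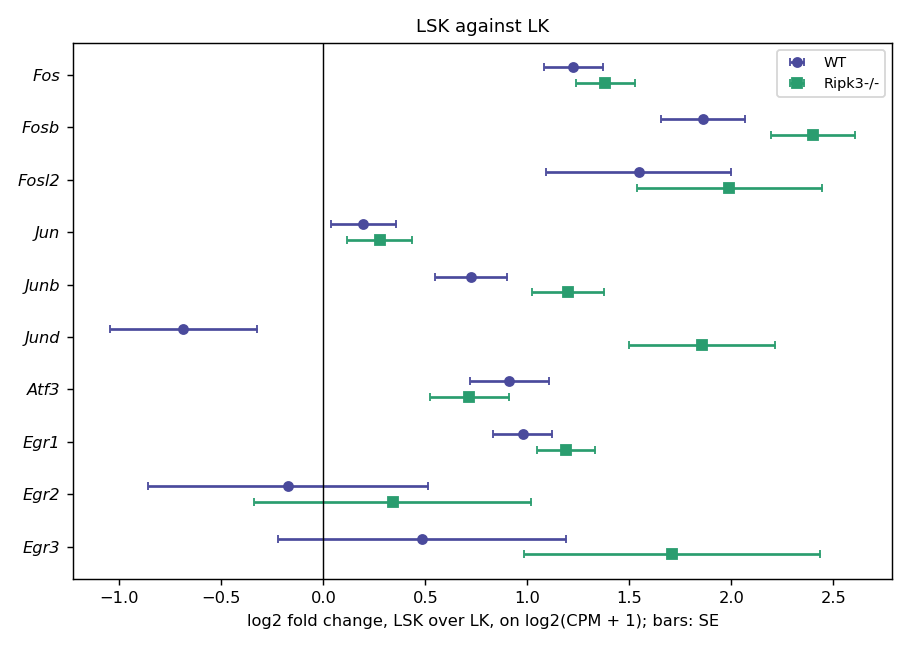
Log2 fold change of LSK over LK on log2(CPM + 1), with bars for the SE, in WT (circles) and Ripk3-/- mice (squares). Fosb was highest at 1.86 and 2.40, Jun was near 0 at 0.20 and 0.28, and Jund was at -0.69 in WT and 1.86 in Ripk3-/- mice.

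The scale of this comparison depends on the library factors. When each library was instead scaled to the same total, without TMM factors, the median of all genes moved from 0.08 to 0.46 in WT and from 0.00 to 0.29 in Ripk3-/- mice, and values are best read relative to that shift. On that scale Fos was at 1.65 in WT and 1.70 in Ripk3-/- mice. Quantile normalization, which gives each library the same set of values, put Fos at 2.95 and 2.71. It also put the log2 fold change of Fos between genotypes in LSK cells at 0, since Fos held the highest value in each of those libraries.

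Other genes of the pathway were described from lists written with results of these libraries known. Their counts of calls and the p-values of the named genes are therefore a description. Of the 36 other immediate-early genes, 21 of 34 tested were called higher and 1 lower in LSK than in LK cells of WT mice, and 26 of 34 higher and 1 lower in Ripk3-/- mice. Over all genes, 9.16% were called higher and 14.8% lower in WT, and 7.95% and 12.2% in Ripk3-/- mice. Nr4a1, an orphan nuclear receptor, was higher by 3.07 (SE 0.18, adjusted p = 4.9e-11 from limma) in WT and by 3.10 (SE 0.18, adjusted p = 3.6e-11) in Ripk3-/- mice. In WT the named genes also held Cyr61 (3.40, SE 0.64, adjusted p = 0.000604 from limma), Klf4 (2.48, SE 0.30, adjusted p = 4.1e-06) and Nr4a2 (2.41, SE 0.32, adjusted p = 1.1e-05). Cyr61 was at a signal of 0.204 in WT LK replicate 1, which is the floor, and at 2.98 in replicate 2. In Ripk3-/- mice the named genes held Dusp2 (3.05, SE 0.29, adjusted p = 7.3e-08 from limma), Dusp5 (2.80, SE 0.38, adjusted p = 1.3e-05) and Socs3 (2.58, SE 0.27, adjusted p = 3.3e-07). Tnfaip3, which restrains NF-kB signaling, was the gene called lower in LSK cells, by 0.79 in WT (-0.79, SE 0.18, adjusted p = 0.00255 from limma) and by 0.69 in Ripk3-/- mice (-0.69, SE 0.18, adjusted p = 0.00718), and is named after its values were seen.

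Between genotypes, 7 of 33 other immediate-early genes were called lower and 0 higher in Ripk3-/- LK cells, with a list median of -0.61 beside 0.01 for all genes. In LSK cells 6 of 34 were lower and 0 higher, with a median of -0.46 beside -0.01. Over all genes, 0.373% were called lower and 0.1% higher in LK, and 1.27% and 0.892% in LSK cells. Nfkbia, which encodes the NF-kB inhibitor IkBα, was at 1736 and 1792 in WT LK and at 532 and 634 in Ripk3-/- LK libraries (-1.60, SE 0.14, adjusted p = 7.4e-07 from limma). In LSK cells it was at 1852 and 2001 in WT and at 879 and 849 in Ripk3-/- libraries (-1.16, SE 0.14, adjusted p = 4.1e-05 from limma). Both Ripk3-/- values were well below WT in each population.

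Plk2, a stress-induced kinase, fell by 2.0 in LK (SE 0.31, adjusted p = 0.00175 from limma) and by 1.22 in LSK cells (SE 0.30, adjusted p = 0.0395). In LK cells Plk3 fell by 2.28 (SE 0.46, adjusted p = 0.0193 from limma). Dusp2, a phosphatase of MAP kinases, was at 283 and 149 in WT LK and at 26.7 and 54.0 in Ripk3-/- LK libraries (-2.41, SE 0.29, adjusted p = 5.2e-05 from limma). In LSK cells Dusp2 was at 396 and 263 in WT and at 404 and 426 in Ripk3-/- libraries. Like Jund, it was low only in the Ripk3-/- LK libraries, and the difference between populations was 2.77 (SE 0.41, adjusted p = 0.00177 from limma), a call lost without WT LSK replicate 2 (2.47). In LSK cells Gadd45b fell by 1.39 (SE 0.26, adjusted p = 0.00426 from limma) and Sgk1 by 1.38 (SE 0.32, adjusted p = 0.0253). Without WT LK replicate 1 the calls of Plk2 (-1.8) and Plk3 (-1.57) in LK cells were lost, and that of Plk3 also without either Ripk3-/- LK library (-2.11 and -2.46). In LSK cells the call of Gadd45b was lost without WT LSK replicate 2 (-1.15) or Ripk3-/- LSK replicate 1 (-1.22). That of Sgk1 was lost without any LSK library or either Ripk3-/- LK library (-1.69 to -1.07), and that of Plk2 without any one of the 8 libraries.

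Some heat shock genes were lower in Ripk3-/- cells, with 3 of 9 called lower in LSK and 2 of 9 in LK cells and 0 higher, and their part in the results above was not tested. The shares of all genes called lower were 1.27% in LSK and 0.373% in LK cells. The list median was -0.68 in LSK and -0.51 in LK cells. The summed signal of 9 heat shock genes was 2046 to 2221 in WT LSK, 1383 to 1479 in Ripk3-/- LSK, 2431 to 2610 in WT LK and 1988 to 2131 in Ripk3-/- LK libraries, and none was at 0 in all libraries of a group. Hspa1a, an inducible chaperone, fell by 1.78 in LSK (SE 0.25, adjusted p = 0.000277 from limma) and by 1.38 in LK cells (SE 0.25, adjusted p = 0.00869). Its neighbour and near copy Hspa1b fell by 1.58 (SE 0.22, adjusted p = 0.00027 from limma) and by 1.19 (SE 0.22, adjusted p = 0.0103), and reads of the pair may be shared. Hsp90aa1 fell by 0.68 in LSK cells (SE 0.16, adjusted p = 0.0298 from limma). The calls of Hspa1a and Hspa1b in LK cells were lost without any one LK library, and that of Hsp90aa1 without any LSK or either Ripk3-/- LK library, at -0.76 to -0.60. Between populations the order was the reverse of that of the immediate-early genes, since 6 of 9 heat shock genes were called lower and 1 higher in LSK than in LK cells of each genotype. The shares of all genes called lower were 14.8% in WT and 12.2% in Ripk3-/- mice. Hspa1a was lower by 2.19 in WT (-2.19, SE 0.25, adjusted p = 1.9e-06 from limma) and by 2.58 in Ripk3-/- mice (-2.58, SE 0.26, adjusted p = 1.3e-07). Dnajb1, named after its values were seen, was the gene that was higher, at 0.62 (SE 0.16, adjusted p = 0.00813 from limma) and 0.69 (SE 0.16, adjusted p = 0.00375).

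The upstream machinery showed no calls between genotypes. Over all genes tested, 0.473% were called in LK and 2.16% in LSK cells, so that 0 calls in short lists is near these shares. An unadjusted p under 0.05 was found for 915 of 13949 genes in LK and 3011 of 16817 in LSK cells. Of 7 upstream factors (SRF, its cofactors, and Creb1, whose protein binds the CRE element), 0 were called between genotypes in LK (2 with an unadjusted p under 0.05) or LSK cells (1), with Creb1 at 0.72 (SE 0.28) and Mkl1 at 0.53 (SE 0.29) in LK cells, and Elk3 at 0.54 (SE 0.29) and Elk4 at 0.14 (SE 0.28) in LSK cells. Elk3, an ETS partner of SRF, was higher in LSK than in LK cells by 1.37 (SE 0.29, adjusted p = 0.00159 from limma) in WT and by 1.44 (SE 0.29, adjusted p = 0.001) in Ripk3-/- mice. Of 9 kinases that act on the factors, 0 were called between genotypes, also at an unadjusted p under 0.05. For LSK against LK cells, 3 of these 9 were called lower in WT (14.8% of all genes) and 1 in Ripk3-/- mice (12.2%), and 0 higher. Rps6ka1, which encodes the kinase RSK1, was lower in LSK than in LK cells by 1.47 in WT (-1.47, SE 0.21, adjusted p = 2.5e-05 from limma) and by 1.12 in Ripk3-/- mice (-1.12, SE 0.21, adjusted p = 0.000424). Mapk14 was lower in LSK than in LK cells of WT mice (-0.56, SE 0.18, adjusted p = 0.0268 from limma), and this call was lost without LSK replicate 1 (-0.48) or either LK library.

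Of the other AP-1 family bZIP genes, 0 of 11 were called between genotypes in LK cells (2 with an unadjusted p under 0.05) and 0 of 13 in LSK cells (2). The shares of all genes are those given for the upstream machinery, and nothing is read from these counts. Creb5 was higher in LSK than in LK cells of WT mice (2.78, SE 0.66, adjusted p = 0.00397 from limma), and Jdp2, a repressor of AP-1, in Ripk3-/- mice (1.25, SE 0.40, adjusted p = 0.0278). Creb5 was at a signal of 0.272, near the floor, in WT LK replicate 1 and at 2.60 in replicate 2. The call of Creb5 was lost without LSK replicate 2 (2.22) or LK replicate 1 (1.98), and that of Jdp2 without LSK replicate 2 (1.03) or either LK library. Of Egr4 and the EGR corepressors Nab1 and Nab2, 0 of 3 were called in any comparison. Of 16 genes known as targets of AP-1 or EGR factors, 12 were tested between genotypes. The chemokine gene Cxcl2 was the only one called, at 38.7 and 48.6 in WT LK and at 17.2 and 16.02 in Ripk3-/- LK libraries (-1.33, SE 0.29, adjusted p = 0.0364 from limma), and this call was lost without any LK or either WT LSK library (-1.49 to -1.17). In LSK cells 0 were called, and 6 of 12 had an unadjusted p under 0.05, as did 3011 of 16817 genes. In WT mice Thbs1 (2.23, SE 0.71, adjusted p = 0.0273 from limma), Ptgs2 (1.90, SE 0.48, adjusted p = 0.00666) and Hbegf (1.75, SE 0.42, adjusted p = 0.00433) were higher in LSK than in LK cells, and in Ripk3-/- mice Hbegf (1.68, SE 0.42, adjusted p = 0.00554 from limma) and Cxcl2 (0.84, SE 0.29, adjusted p = 0.0454) were. Each of these calls was lost when some one library was left out, at 1.58 to 1.67 for Thbs1 (LSK replicate 2, LK replicate 1), 1.48 for Ptgs2 (LK replicate 2), 1.34 to 1.45 for Hbegf (replicate 2 of either population) and 0.79 to 0.89 for Cxcl2 (any Ripk3-/- or WT LK library). Thbs1 was at a signal of 0.408, near the floor, in WT LK replicate 1 and at 2.29 in replicate 2.

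**Figure D5:**
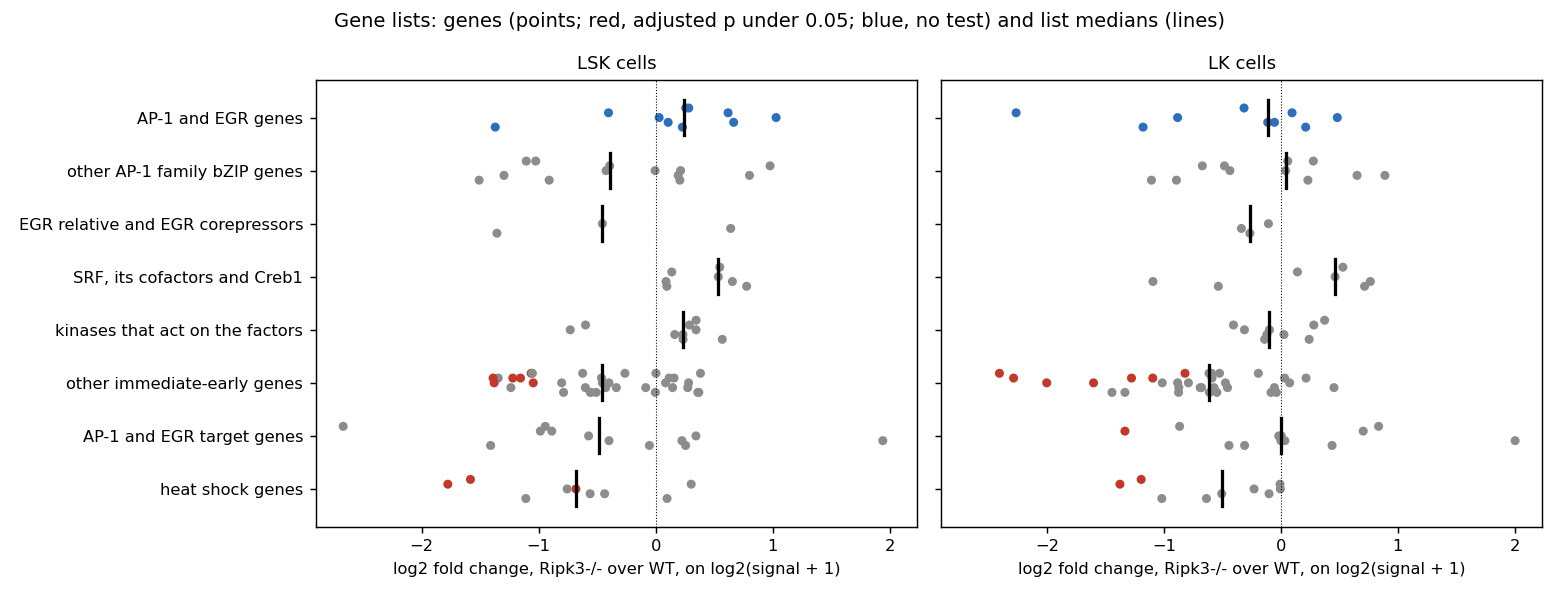
Log2 fold change of Ripk3-/- over WT on log2(signal + 1) in LSK and LK cells for each gene (points, red for an adjusted p under 0.05 in limma, gray for others) of the AP-1 and EGR genes and 7 related lists, with list medians as lines. The points of the AP-1 and EGR genes (blue) are a description without a test, and the red points of the other lists lay below 0, with 7 other immediate-early genes and 2 heat shock genes in LK and 6 and 3 in LSK cells. Over all genes, 0.373% were called lower in LK and 1.27% in LSK cells. The other lists were also written with results of these libraries known.

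The genes whose pattern over the 8 libraries was most like that of Fos were ranked by Pearson's r of log2(CPM + 1) among 9103 genes with a mean of at least 10 CPM, as a description without a test, since the libraries share group and depth. Among the first 10 were Osbpl1a (r = 0.991), Tle2, Rhof, Tie1, Ptprcap, Tnfrsf13c, Ccdc48, Meis1 and Igj (r = 0.986). Between 3 and 7 of the first 10 stayed among them when a library was left out. Of the members, Egr1 ranked 13 (r = 0.986), Fosb 214 (0.942) and Fosl2 225 (0.941), whereas Junb ranked 988 (0.744), Jun 1034 (0.732), Atf3 1989 (0.427) and Jund 2289 (0.321). Deviations from the group means followed Fos at r = 0.914 for Jun, 0.908 for Atf3, 0.852 for Junb, 0.81 for Egr1, 0.79 for Jund and 0.46 for Fosl2, and at -0.33 for Fosb. With 2 libraries per group these deviations are equal and opposite, so that each group gives 1 independent value and a high r arises easily. The share of all genes with such values is not given, and nothing is read from them.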

How the data were processed

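RNA-seq of sorted LSK and LK cells of WT and Ripk3-/- mice was used as deposited, and no reads were aligned. The submitters' processing notes name TopHat and mm9, and the counting tool is not given in the sources used here. The column is headed FPKM, as the design of the tests assumed, but 100% of the signal values deposited by the authors were whole multiples, within 0.01, of one step per library. They are reads per gene as CPM with a TMM factor computed apart for LSK and LK libraries (largest difference of the factors 7.8e-12), and dividing by the step gave back the reads. Groups were taken from the labels.

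The main test was limma 3.58.1 (R 4.3.3; lmFit, eBayes with a trend, two-sided, Benjamini-Hochberg) on log2(signal + 1) with 4 group means, over genes with a mean of at least 1. Called means an adjusted p under 0.05. LSK and LK were compared on recovered reads with TMM over all 8 libraries (edgeR 4.0.16). The edgeR quasi-likelihood test and DESeq2 1.42.0 of the reads, other scalings, filters, pseudocounts and variance priors, a replicate block and leaving out each library were alternatives. Removal of a loess trend on GC content (22244 names had a value) and a crossed block were chosen after seeing the data. The tests were checked on simulated data.

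The members and lists were chosen with earlier results of these data known. Named in the text are all members, Ripk3, up to 4 called genes of each related list and comparison with the largest change (with none called, at most the 2 of highest mean), and the 10 genes most like Fos. Genes of the lists that were not called are mostly given by their counts. Gene annotation was GENCODE M21 on GRCm38, and promoters were RefSeq sequences of GRCm38.p6. Sequences of Egr1 and Egr3 are not printed here. Some genes that the naming rule selects are not reported here.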

Additional observations from a re-analysis of the deposited data

Results flagged for a closer look

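Dusp2 had a different genotype effect in LSK and LK cells by the interaction term of limma, and Jund showed the same pattern, both as a description. Dusp2 comes from a list written with results of these libraries known, so its p-value is a description too. For Jund the log2 fold change of Ripk3-/- over WT was 0.28 in LSK and -2.26 in LK cells, a difference of 2.55 (SE 0.51). For Dusp2 the difference was 2.77 (SE 0.41, adjusted p = 0.00177 from limma). Jund was chosen with this contrast known, so its difference is given without a test, and it was past the threshold of limma for all genes in 2 of 8 fits with a library left out.

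In both genes the 2 Ripk3-/- LK libraries held the lowest values, and their replicates stood apart, at 51.7 and 197 for Jund and at 26.7 and 54.0 for Dusp2. The Jund difference was 1.59 without Ripk3-/- LK replicate 1 and 3.5 without Ripk3-/- LK replicate 2. The Dusp2 difference stayed between 2.27 and 3.26 when a library was left out. Among 15901 genes, 57 were called in this comparison.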

How the results depend on the processing

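Of the members, 3 were called in LK cells between genotypes, but 0 without a filter on low values and 0 without a trend in the prior variance, and 0 to 3 when a library was left out. In LSK cells the 1 call became 0 without a trend. The 1 call of a difference between populations became 0 with a pseudocount of 0.1, without a filter, with edgeR, with DESeq2 and without a trend, and was 0 to 1 with a library left out (0 in 6 of 8). For LSK against LK in WT, the 6 calls of members, which include Fos, Junb and Atf3, became 3 without a trend. In Ripk3-/- mice the 7 calls, which include Fos, Jund, Junb and Atf3, ranged from 5 to 8. Of the 10 genes most like Fos, 3 to 7 remained with a library left out. The causes were not tested.

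Over all genes, the calls ranged from 3 to 177 in LK (66 as reported) and from 99 to 613 in LSK cells (363), from 2 to 155 for the difference (57), from 1502 to 4116 for WT (3814) and from 1489 to 3380 for Ripk3-/- mice (3072), with the highest counts between genotypes from DESeq2.

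Signs changed for values that were small or not called. Among the members, the log2 fold changes between genotypes with a library left out ran in LK cells from -0.0687 to 0.26 for Fos, from -0.69 to 0.0574 for Fosb, from -0.21 to 0.63 for Fosl2, from -0.20 to 0.0925 for Jun and from -0.45 to 1.41 for Egr2. In LSK cells they ran from -0.20 to 0.26 for Jun and from -0.26 to 1.5 for Egr3. With quantile normalization Egr1 and Jun in LK cells were 0.0334 and 0.11, and the difference between populations was -0.24 for Fos. In LK cells Nab2 (-0.11) was 0.0139 with the GC trend removed and -0.59 to 0.38 with a library left out, Rps6ka1 (-0.12) was 0.00284 with quantile normalization and -0.30 to 0.0623 with a library left out, and Nab1 ran from -1.06 to 0.39. In LSK cells the ranges with a library left out were -1.003 to 0.155 for Mafk, -0.0334 to 0.448 for Atf2, -0.92 to 0.00592 for Nab2, -0.0725 to 0.348 for Elk4 and -0.12 to 0.59 for Rps6ka1. For LSK against LK in WT, Egr2 (-0.17) was 0.17 scaled to the same total, 0.18 with edgeR and 0.22 with DESeq2. Egr3 (0.48) was -0.19 with quantile normalization, and Nab1 (-0.34) was 0.0659 scaled to the same total. With a library left out, these 3 ran from -1.12 to 0.77, from -0.36 to 1.33 and from -1.08 to 0.39, and Egr2 in Ripk3-/- mice from -0.61 to 1.29.

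Some calls of related genes were lost under many of 19 alternatives, as for Plk2 in LSK cells (13), Cxcl2 in LK cells (10), Hsp90aa1 in LSK cells (10) and Sgk1 in LSK cells (9). Nothing in the labels says that replicate numbers mark a shared mouse or batch, and the replicate differences of groups correlated at -0.15 to 0.0046. With the number as a replicate block, 3, 1, 1, 6 and 7 members were called in the 5 comparisons, as without it, and 79, 289, 53, 3146 and 2684 of all genes. For LSK against LK in Ripk3-/- mice, where the correlation was -0.15, the crossed block called 3380 genes and the block as numbered 2684.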
